A study of Homo sapiens with 4 samples.

Results

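The 10 genes described here carry the TGF-beta signal from the secreted ligand to the nucleus: the ligands TGFB1 and TGFB2, the receptors TGFBR1, TGFBR2 and ACVRL1, the co-receptor ENG, and the intracellular transducers SMAD2, SMAD3, SMAD4 and SMAD7. They were set by name and by no threshold on these data, with earlier results of the data known, and are 10 of 20033 protein-coding genes of GENCODE version 44 on the hg38 build. For each gene, the window examined was the annotated gene plus 20 kb on either side. The windows held 64 of the 69299 MTF-1 peaks in the control list and 68 of the 60130 peaks in the cadmium list.

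MTF-1 is the zinc finger transcription factor that binds metal response elements. Its positions were mapped by CUT&RUN, in which an antibody directs a nuclease to a chromatin protein and the released DNA fragments are sequenced. The cells were MDA-MB-231, an established human breast cancer line. Control cells had received no metal and gave 2 libraries. Cadmium cells were a resistant population obtained by serial passage in cadmium sulfate raised to 10 µM and gave 2 libraries, and continued exposure and selection during passage cannot be told apart in them. An anti-MTF1 antibody was used in all libraries. The replicates of each condition were merged before peaks were called, so that 1 peak list per condition was available. A difference between the lists therefore has no replicate error and no test, and the depth behind each list is unknown because the lists hold positions only. They also hold no expression, so the identity of the cells was not checked against marker genes. The control list covered 130.4 Mb with a median peak width of 1399 bp, and the cadmium list covered 90.9 Mb with a median width of 999 bp. This excess of control bases over the whole genome is the background for every difference given here.

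TGF-beta ligands are secreted in a latent form and, once released, bring together a type II and a type I receptor kinase on the cell surface. The type I receptor TGFBR1 then phosphorylates SMAD2 and SMAD3, which join SMAD4 and enter the nucleus to regulate genes. SMAD7 acts back on the receptors as an inhibitor. In breast epithelium the pathway is known for restraining growth in normal cells and for promoting epithelial to mesenchymal transition and invasion in advanced cancers. Nuclear SMAD complexes act at DNA together with other factors, among them the FOS and JUN dimers called AP-1.

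Peaks of 1 list that touched no base of the other were called lost when they were in the control list and gained when they were in the cadmium list. Overlapping peaks were joined into shared sites. Sequences are shown here for the gained peaks that held the AP-1 string TGACTCA, searched on both strands, and were read from hg38 on the forward strand. The 199-bp peak gained upstream of SMAD2 (chr18:47945601-47945799) is given whole, with the AP-1 string in capitals. It lay near the centre of the peak.
SMAD2 gained peak: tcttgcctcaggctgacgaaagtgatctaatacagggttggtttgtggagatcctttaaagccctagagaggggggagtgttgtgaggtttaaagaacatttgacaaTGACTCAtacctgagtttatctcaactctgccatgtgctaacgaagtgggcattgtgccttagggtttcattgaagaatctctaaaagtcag
The 1199-bp peak gained inside TGFBR2 (chr3:30626001-30627199) held the string at chr3:30626048-30626054 and chr3:30626972-30626978, on either side of its centre. Each is shown with 20 bases on either side.
TGFBR2 gained peak, first string: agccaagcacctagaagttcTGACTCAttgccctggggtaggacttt
TGFBR2 gained peak, second string: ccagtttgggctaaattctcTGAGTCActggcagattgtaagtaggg
The other 3 gained peaks, at ACVRL1, ENG and SMAD3, held no AP-1 string, and over all gained peaks 43.1% held one when whole peaks were searched. Of the 8 lost peaks, 3 held the string, 1 in TGFB2 at chr1:218370376-218370382 and 2 in TGFBR2, against 41.2% of all lost peaks. For comparison, and chosen after their values were seen, the strings of the 2 peaks lost inside TGFBR2 are shown in the same way, at chr3:30623540-30623546 and chr3:30655522-30655528.
TGFBR2 lost peak, first: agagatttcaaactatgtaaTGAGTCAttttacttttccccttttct
TGFBR2 lost peak, second: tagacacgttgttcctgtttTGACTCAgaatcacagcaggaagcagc
Peaks lost and gained in TGFBR2 thus both carried the string.

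Most MTF-1 peaks at the TGF-beta genes were present in both conditions. Of the 64 control peaks, 8 were lost, or 12.5% against 27.9% of all control peaks, and of the 68 cadmium peaks 5 were gained, or 7.35% against 15.1% of all cadmium peaks. The all-peak shares include intergenic peaks, and the members' peaks were wider than those of the whole lists, so the 2 sets are not matched. The remaining peaks formed 53 shared sites. Lost peaks were found at 3 genes, TGFB2 with 5, TGFBR2 with 2 and SMAD7 with 1, where 46.0% of all coding-gene windows had at least 1. Gained peaks were found at 5 genes, TGFBR2, ACVRL1, ENG, SMAD2 and SMAD3 with 1 each, where 31.1% of all coding-gene windows had at least 1. TGFB1, TGFBR1 and SMAD4 had neither. The member windows were longer than most, with a median of 94427 bp against 67471 bp for coding genes. Where a peak was called shared only if at least 50% of it was covered by the other list, 22 control peaks counted as lost and 9 cadmium peaks as gained. The shares over all peaks were not computed under this rule, so these 2 counts have no background.

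**Figure D1:**
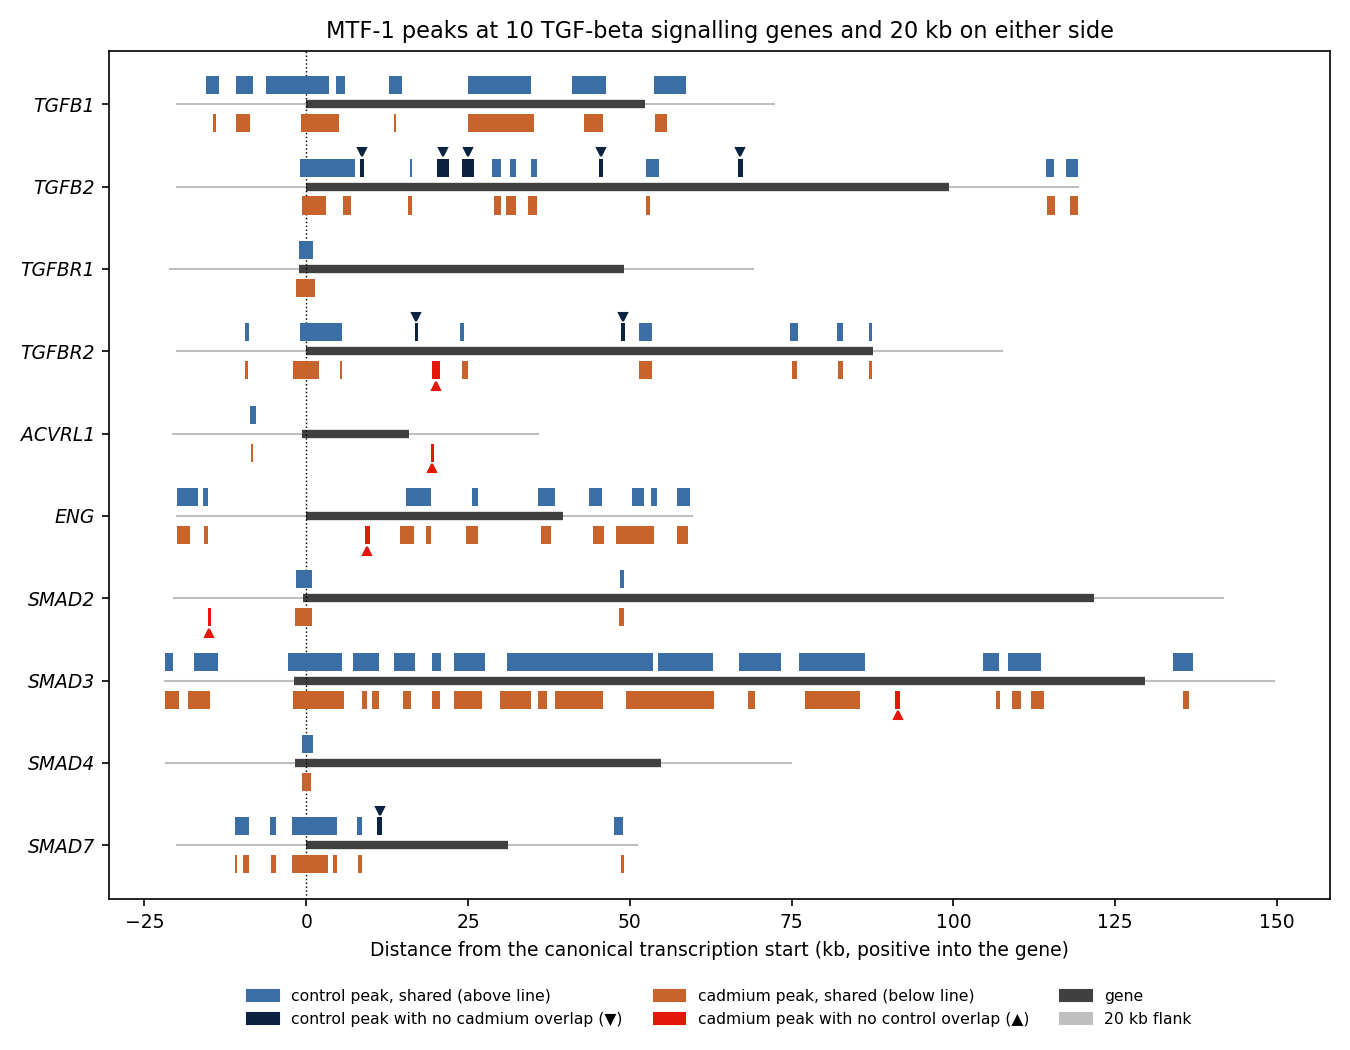
MTF-1 peaks by distance from the canonical transcription start in kb, with positive values running into the gene; control peaks are above and cadmium peaks below each gene, and triangles mark the 8 lost and 5 gained peaks. The lost peaks lie in introns of TGFB2, TGFBR2 and SMAD7, and each of the 5 gained peaks belongs to a different gene.

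The TGF-beta genes as a group had fewer bases under peaks in cadmium, by about as much as coding genes in general. Together the 10 windows held 198053 bp under control peaks and 149649 bp under cadmium peaks, a ratio of 0.756, and 130051 bp were covered in both lists. SMAD3 alone supplied 43.0% of the control bases, and without SMAD3 the ratio was 0.752. On the log2 scale, with 200 bp added to each value, the median ratio of cadmium to control bases was -0.34 over the 10 genes and -0.38 over the 18115 coding-gene windows with any peak. The values ran from -0.83 at TGFB2 to 0.32 at TGFBR1. Covered bases were lower in the cadmium list at 7 genes and higher at TGFBR1, SMAD2 and ENG, a direction that turned for ENG and, among the 7, for ACVRL1 when the flanks were 5 kb. No member changed by 2-fold or more in these windows, where 18.1% of coding-gene windows were at least 2-fold lower and 3.79% at least 2-fold higher. Of the 10 genes, 5 lay above and 5 below the coding-gene median.

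**Figure D2:**
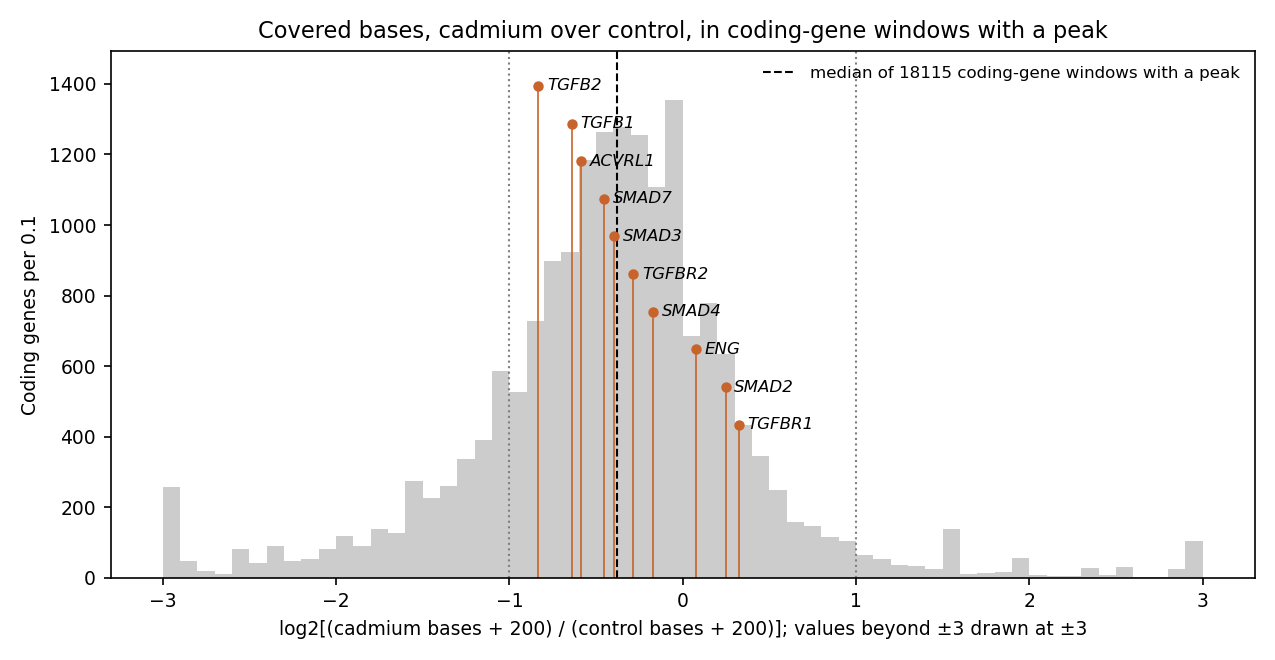
Histogram of the log2 ratio of cadmium to control bases, each plus 200 bp, over 18115 coding-gene windows with a peak, with the 10 genes as lollipops whose heights only separate the labels; the dashed line is the coding-gene median and the dotted lines mark 2-fold. The 10 genes lie between -0.83 and 0.32, around the coding-gene median of -0.38.

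MTF-1 peaks at transcription starts were found at the same members in both lists. A peak within 1 kb of the canonical start was present in both lists at 8 genes, TGFB1, TGFB2, TGFBR1, TGFBR2, SMAD2, SMAD3, SMAD4 and SMAD7, where 65.5% of coding genes had one. ACVRL1 and ENG had none in either list, where 30.1% of coding genes had none. No member had a start-site peak in 1 list alone, where 3.08% of coding genes had one in the control list only and 1.32% in the cadmium list only. ENG counted as having a start-site peak in both lists when the start of any of its transcripts was allowed. The start-site peak was shorter in the cadmium list at 6 of the 8 genes and longer at TGFBR1 and SMAD2. The same was not counted over all coding genes, and control peaks were the wider ones over the whole lists.

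The sequence around 2 of these shared starts shows the strings searched. The 60 bases ending at the start base are shown on the sense strand for TGFBR2 (chr3:30606542-30606601), where the AP-1 string in capitals ended on the start itself, and for SMAD3 (chr15:67065543-67065602), where a metal response element core in capitals lay just upstream. The core was searched as TGCACNC and TGCGCNC on both strands. Both stretches were chosen after their values were seen. Among the other shared starts, the same stretch held a core at SMAD4. It held neither string at TGFB1, TGFB2, TGFBR1, SMAD2 and SMAD7.
TGFBR2 start: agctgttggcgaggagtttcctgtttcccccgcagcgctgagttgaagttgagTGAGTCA
SMAD3 start: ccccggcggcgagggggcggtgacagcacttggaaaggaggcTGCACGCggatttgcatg
In RefSeq promoters of GRCh38.p14, which run from 250 bases before to 50 after each start, the AP-1 string was in 4.95% and the core in 29.6% of 35116. These promoters are longer than the stretches shown, so the shares are not matched to them. A matched string is a description of the letters and not evidence that a factor was bound there.

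TGFB1, the most widely expressed of the TGF-beta ligands, lies on chr19:41301587-41353922 on the reverse strand. Its window held 8 control peaks over 37792 bp and 7 cadmium peaks over 24193 bp, a log2 ratio of -0.64 with no lost or gained peak. Control peaks covered 40.9% of this window and cadmium peaks 26.2%. The change therefore lay entirely in the length of its 7 shared sites, of which 6 were longer in control and 1 in cadmium. The start-site peak was 9799 bp wide in control (chr19:41350401-41360199) and 5999 bp wide in cadmium (chr19:41348801-41354799). The cadmium peak reached less far upstream and further into the gene, where it met a separate control peak, and 4399 bp of the control peak were covered by the cadmium list. The site with the steepest reduction, chr19:41339201-41341199 in the gene, went from 1999 to 399 bp. One long site at chr19:41318801-41328999 was slightly longer in cadmium, with 9799 bp in control and 10199 bp in cadmium. The window also held the coding genes B9D2, CCDC97, HNRNPUL1, TMEM91 and ENSG00000255730, so peaks there cannot be assigned to TGFB1 alone.

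TGFB2, the second ligand, on chr1:218345336-218444619 on the forward strand, had the lowest ratio of the 10. Its window held 13 control peaks over 22607 bp and 9 cadmium peaks over 12611 bp, a log2 ratio of -0.83. A lower ratio was found in 23.6% of coding-gene windows with a peak. All 5 of its lost peaks were in introns. The 3 widest were chr1:218365601-218367399 and chr1:218369401-218371199, each 1799 bp, and chr1:218412001-218412799 with 799 bp. Their centres lay 21164, 24964 and 67064 bp into the gene. Lost peaks made up 5595 bp of the difference, and the start-site peak went from 8399 bp (chr1:218344401-218352799) to 3799 bp (chr1:218344601-218348399). The cadmium start-site peak lay wholly inside the control one, as did a separate cadmium peak of 1199 bp (chr1:218351001-218352199), so that 4998 bp of the control peak were covered. Not every site shortened, since 3 of the 8 shared sites of TGFB2 were longer in cadmium, among them chr1:218361001-218361599 with 199 bp in control and 599 bp in cadmium. RRP15 was the only other coding gene in the window.

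TGFBR1, the type I receptor kinase that phosphorylates SMAD2 and SMAD3, lies on chr9:99104038-99154192 on the forward strand. It had a single peak in each list, at its start. The peak was 2199 bp wide in control (chr9:99104001-99106199) and 2799 bp wide in cadmium (chr9:99103601-99106399). The control peak lay wholly inside the cadmium one, and the log2 ratio of 0.32 was the highest of the 10 genes, above 88.3% of coding-gene windows with a peak. The difference of 600 bp corresponds to a few of the 200-bp bins in which peaks were called.

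TGFBR2, the type II receptor kinase that binds the ligand first, lies on chr3:30606601-30694142 on the forward strand and was the only gene with both lost and gained peaks. It had 9 peaks in each list, over 13191 bp in control and 10791 bp in cadmium, a log2 ratio of -0.28. The lost peaks, chr3:30623401-30623799 with 399 bp and chr3:30655201-30655799 with 599 bp, were intronic. The gained peak of 1199 bp, chr3:30626001-30627199, lay between them in an intron, centred 19999 bp from the start, and it overlapped the pseudogene KLHL25P1. It was the widest of the 5 gained peaks. The start-site peak moved as well as shortened. It was 6599 bp wide in control (chr3:30605601-30612199) and 3999 bp in cadmium (chr3:30604601-30608599), where it reached further upstream, and a separate cadmium peak covered the far end of the control peak at chr3:30611801-30612199. At chr3:30658001-30659999 both lists held an identical peak of 1999 bp. No other coding gene lay in the window.

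ACVRL1, a type I receptor best known in endothelial cells, lies on chr12:51906908-51923361 on the forward strand and had the least coverage of the 10 genes. Its window held 1 control peak over 999 bp and 2 cadmium peaks over 598 bp, a log2 ratio of -0.59. The shared site, upstream at chr12:51898801-51899799, went from 999 to 199 bp. The gained peak of 399 bp, chr12:51926801-51927199, lay downstream of the gene with its centre 19496 bp from the start. No peak of either list overlapped the gene itself, and within 5 kb of the gene only the gained peak remained, which turned the log2 ratio to 1.58. With 50 kb flanks it was -1.39, and among peaks of at least 600 bp it was -2.58. The ratio of this gene thus rested on peaks of 1 to 5 bins. ANKRD33 was the other coding gene in the ACVRL1 window.

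ENG, or endoglin, an accessory receptor that is also best known in endothelium, lies on chr9:127815013-127854658 on the reverse strand. Its window held 9 control peaks over 18250 bp and 10 cadmium peaks over 19249 bp, a log2 ratio of 0.08. Neither list had a peak at its canonical start. The gained peak of 799 bp, chr9:127844801-127845599, was intronic and centred 9458 bp into the gene. It held none of the AP-1, forkhead or metal response element strings. Among 8 shared sites, 5 were longer in control and 3 in cadmium, with sites counted at their whole length. Of the 3, chr9:127871401-127879599 ran past the window, with 6799 bp in control and 6999 bp in cadmium. Inside the window control covered more of it, since the control peak began at chr9:127871401 and the cadmium peak at chr9:127872601. The largest gain in bases, at chr9:127800401-127806799 beyond the end of ENG, went from 2998 to 5799 bp, and chr9:127828201-127829999 inside the gene went from 799 to 1799 bp. The window also held FPGS, AK1 and ENSG00000257524. Within 5 kb of ENG the log2 ratio was -0.11 and over the gene alone -0.00039, so the excess in cadmium came from the flanks.

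**Figure D3:**
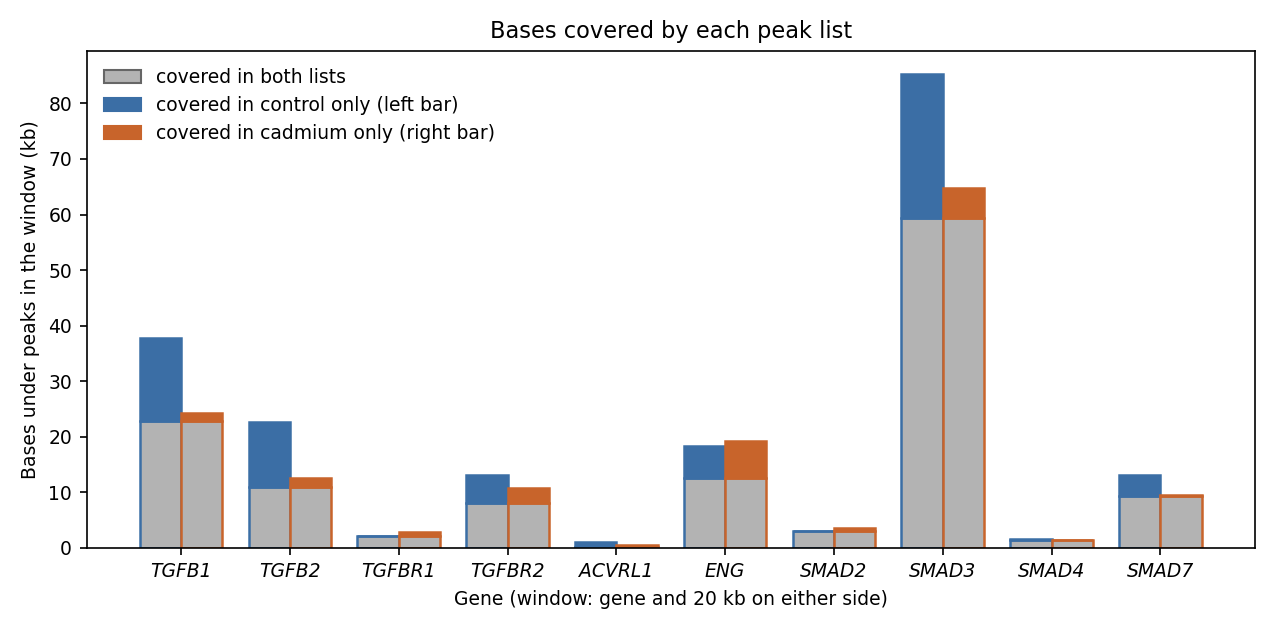
Bases under peaks in kb in the window of each gene, control on the left and cadmium on the right, with bases covered in both lists in grey and bases covered in 1 list alone in color. SMAD3 has the most coverage in both lists (85224 and 64819 bp), and the bars of TGFBR1, ENG and SMAD2 are higher in cadmium, for ENG only through its flanks.

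SMAD2, the receptor-activated SMAD on chr18:47808957-47931146 on the reverse strand, had few peaks. Its window held 2 control peaks over 2998 bp and 3 cadmium peaks over 3597 bp, a log2 ratio of 0.25. Both shared sites were longer in cadmium. The start-site peak was 2399 bp wide in control (chr18:47929801-47932199) and 2599 bp in cadmium (chr18:47929801-47932399), and the intragenic site chr18:47881601-47882399 went from 599 to 799 bp. The added 200 bp at the start-site peak brought in an AP-1 string at chr18:47932383-47932389. The gained peak shown above was centred at -15041 bp, upstream of the start, and was 199 bp wide, a single bin. Every AP-1 string under SMAD2 peaks, 2 in all, was therefore covered in the cadmium list alone.

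SMAD3, the receptor-activated SMAD on chr15:67063763-67195173 on the forward strand, carried more MTF-1 coverage than any other member. Its window held 14 control peaks over 85224 bp and 19 cadmium peaks over 64819 bp, a log2 ratio of -0.39. Peaks covered 49.7% of its window in control and 37.8% in cadmium, a larger share than in 96.4% and 96.1% of coding-gene windows. Cadmium peaks at SMAD3 were thus more numerous but covered fewer bases. The widest control peak among the members, 22599 bp at chr15:67096601-67119199, overlapped 4 cadmium peaks. Over all members, 8 control peaks overlapped 2 or more cadmium peaks and 3 cadmium peaks overlapped 2 or more control peaks. The same was not counted over the whole lists, where control peaks were also the wider ones. Of the 13 shared sites of SMAD3, 12 were longer in control and 1, upstream at chr15:67041401-67045999, was longer in cadmium. The start-site peak changed little, from 8399 bp (chr15:67062801-67071199) to 7799 bp (chr15:67063601-67071399). The site chr15:67132401-67138999 changed most, from 6599 to 1199 bp. The gained peak of 799 bp, chr15:67156601-67157399, lay in an intron, centred 91398 bp from the start. AAGAB was the other coding gene in the window.

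SMAD4, the common partner of the receptor-activated SMADs, lies on chr18:51028528-51085045 on the forward strand and had 1 peak in each list, at its start. The peak was 1599 bp wide in control (chr18:51029601-51031199) and 1399 bp in cadmium (chr18:51029601-51030999), a log2 ratio of -0.17. In both lists it also overlapped the coding gene ENSG00000267699 and the noncoding RNA gene ENSG00000289868, so it cannot be assigned to SMAD4 alone. The peaks shared their upstream edge and differed by 1 bin at the other. With 50 kb flanks, which took in peaks outside the gene, the log2 ratio was -0.91.

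SMAD7, the inhibitory SMAD that is itself switched on by TGF-beta, lies on chr18:48919853-48950965 on the reverse strand. Its window held 6 control peaks over 13194 bp and 7 cadmium peaks over 9593 bp, a log2 ratio of -0.45. All 5 shared sites were longer in control. The lost peak of 799 bp, chr18:48939201-48939999, was intronic and centred 11365 bp into the gene. The start-site peak was 6999 bp wide in control (chr18:48946201-48953199) and 5599 bp in cadmium (chr18:48947601-48953199), with the same upstream edge. A separate cadmium peak of 599 bp (chr18:48946201-48946799) covered the other end of the control peak, of which 6198 bp were covered in all. This peak held 15 metal response element cores in each list, the most of the 8 start-site peaks, and a SMAD palindrome, GTCTAGAC, upstream of the start. A stretch of the first intron with 3 copies of the core at even spacing (chr18:48949641-48949731) and the palindrome with 20 bases on either side (chr18:48952198-48952245) are shown on the forward strand, with the strings in capitals. They were chosen after their values were seen.
SMAD7 intron, repeated core: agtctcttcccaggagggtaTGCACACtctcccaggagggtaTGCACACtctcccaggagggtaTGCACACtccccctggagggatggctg
SMAD7 upstream, palindrome: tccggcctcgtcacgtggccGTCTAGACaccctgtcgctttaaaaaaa
In the central 500 bp, 0 of the members' 64 control peaks and 1 of their 68 cadmium peaks held the palindrome. Over all peaks the shares were 0.307% and 0.333%. With whole peaks searched, 3 of these control peaks and 5 of these cadmium peaks held it, against 1.11% and 0.886% of all peaks. The members' peaks were wider than those of the whole lists, so more bases were searched in them. Besides SMAD7, the members with a palindrome were TGFB2, with 1 covered in both lists, and ENG, with 1 covered in both lists and 2 in cadmium alone.

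At single sites, cadmium peaks at the TGF-beta genes were more often shorter than longer. Of the 53 shared sites, 38 were covered over more bases in control, 12 over more bases in cadmium and 3 equally. Sites that ran past a window edge were counted at their whole length. Over the whole lists, intergenic sites included, 58.0% of 48627 shared sites were longer in control and 23.7% were longer in cadmium. Sites of SMAD3, SMAD7 and TGFB1 made up 23 of the 38. The median log2 ratio over the 53 sites was -0.32. Sites of 1 gene are not replicates of a condition, since they come from the same merged libraries.

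**Figure D4:**
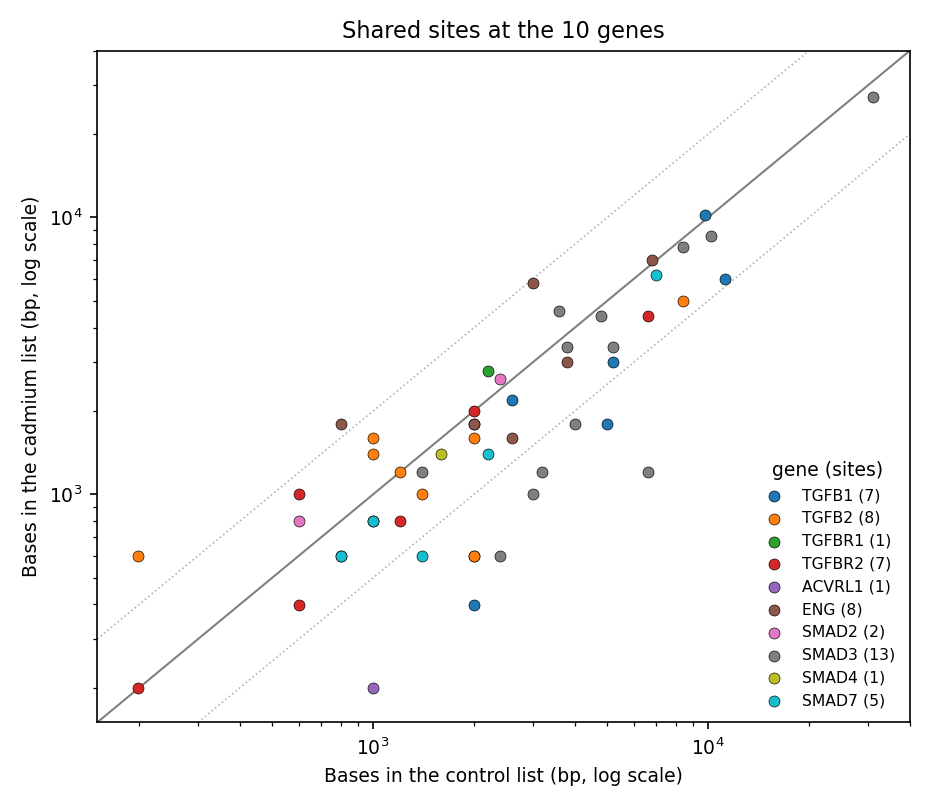
Bases of each of the 53 shared sites under control peaks (horizontal) and cadmium peaks (vertical), in bp on log scales and colored by gene; the solid line marks equal length and the dotted lines 2-fold, and sites with equal values lie on each other. Most points lie below the line of equality (38 of 53) and 3 lie on it.

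The 8 lost peaks were all intronic and had a median width of 699 bp, from 399 to 1799 bp. Of the 5 gained peaks, 3 were intronic, 1 lay upstream of SMAD2 and 1 downstream of ACVRL1, and their widths ran from 199 to 1199 bp around a median of 799 bp. None of the 13 overlapped a start site. The windows were genes with their flanks, which favours peaks inside genes. These locations were not counted over all lost or gained peaks. Control peaks at the members in general had a median width of 1999 bp and cadmium peaks of 1199 bp. Lost and gained peaks were thus narrower than the members' peaks in general, as they were over the whole lists, where lost peaks had a median width of 999 bp and gained peaks of 599 bp. At the members, 2 of the lost and 1 of the gained were at least 1000 bp wide, which was not counted over the whole lists.

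In the central 500 bp, the share of peaks with an AP-1 string was lower at the TGF-beta genes than over all peaks, by less than the counting error. Within 500 bp around the peak centre, TGACTCA was present in 12 of 64 control peaks, or 18.8% (95% Wilson interval from 11.1 to 30.0%), against 24.5% of all control peaks. It was present in 13 of 68 cadmium peaks, or 19.1% (11.5 to 30.0%), against 28.3% of all cadmium peaks. The metal response element core was present in 40.6% of the members' control peaks and 35.3% of their cadmium peaks, against 34.3% and 35.6% of all peaks. Forkhead strings, which were GTAAACA or GTAAATA with either G or A as the first letter, were present in 34.4% and 26.5%, against 30.5% and 25.5%. The all-peak values for all 3 strings lay within the intervals of the members, which cover counting error only. With whole peaks searched this no longer held for forkhead strings in cadmium, with 47.3% of all peaks against 49.9 to 72.4%, and for the core in control, with 62.0% against 66.6 to 86.5%. The AP-1 share was then slightly higher at the members, 51.6% against 48.9% in control and 51.5% against 47.6% in cadmium. The members' peaks were also wider than those of the whole lists. None of the 5 gained peaks held a metal response element core within the central 500 bp, against 30.6% of all gained peaks, and 4 of the 8 lost peaks held one, against 28.8% of all lost peaks. Both all-peak shares lay within the members' intervals, from 0 to 43.4% and from 21.5 to 78.5%.

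Counted over bases in place of peaks, AP-1 strings lay mainly where both lists had a peak. Of the distinct AP-1 strings under member peaks, 50 were covered in both lists, 12 in control alone and 4 in cadmium alone. This was 0.384 strings per kb in the bases of both lists, 0.176 in those of control alone and 0.204 in those of cadmium alone. Over the whole lists the densities were 0.470, 0.255 and 0.355 per kb in the same order. SMAD3 held 24 of the 50 strings covered in both lists and 5 of the 12 covered in control alone. The 4 covered in cadmium alone were the 2 of SMAD2 and 2 of TGFBR2 already shown. TGFBR1, ACVRL1 and SMAD4 held none. Forkhead strings were denser in the bases of control alone, at 1.19 per kb, and of cadmium alone, at 1.12 per kb, than in those of both, at 0.623 per kb. Over the whole lists the forkhead densities were 0.963, 0.662 and 0.627 per kb in the same order.

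Other genes of the pathway, 44 in a list of ligands, latency proteins, receptors, SMADs, inhibitors and targets, gave a similar median log2 ratio of -0.40. Covered bases were lower in cadmium at 42 and higher at 2, the ligands BMP2 and NODAL, with log2 ratios of 0.42 and 0.19. The share of coding-gene windows lower by any amount was not counted, but with a median of -0.38 most of them were lower. At 10 of the 44, covered bases with 200 bp added to each value were at least 2-fold lower, against 18.1% of coding-gene windows. At none were they at least 2-fold higher, against 3.79%. Lost peaks were found at 22 of the 44, against 46.0% of coding-gene windows, and gained peaks at 9, against 31.1%. The 41 with a start-site peak had it in both lists, and INHBA, BMP7 and NODAL had one in neither. The latency group, which held the LTBP genes, LRRC32 and THBS1, an activator of the latent ligand, had the lowest median at -0.97 over 6 genes. The group was mixed, since LTBP3 at -0.14 and LTBP4 at -0.25 lay above the coding-gene median of -0.38. THBS1 was at -0.88. LRRC32, which tethers latent TGF-beta to the cell surface, went from 17344 to 1398 bp. LTBP1, which anchors latent TGF-beta in the matrix, and LTBP2, a matrix protein of the same family, went from 23577 to 10787 bp and from 38787 to 18590 bp. Among ligands, INHBA went from 3597 to 599 bp and BMP4 from 30556 to 6598 bp. Among receptors, ACVR1B went from 8396 to 2998 bp, BMPR1A from 16192 to 4797 bp and BMPR1B from 12790 to 2796 bp. Among inhibitors, the ubiquitin ligase SMURF1 went from 26189 to 12990 bp and PMEPA1 from 42130 to 19196 bp. Other coding genes in the windows of these pathway genes were not looked for, so the bases cannot be assigned to the named genes alone.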

How the data were processed

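MTF-1 CUT&RUN peaks of MDA-MB-231 control and cadmium cells were analyzed, 2 libraries each. Per the study's methods, reads were trimmed, aligned to hg38 with Bowtie2, and replicates merged with SAMtools 1.8 before peaks were called from the merged files. The methods name Epic2 and the submitters' processing notes name SICER, both as version 0.0.50. No input or IgG library is named for the calls. The authors deposited start and end positions only, in 200-bp bins whose ends are 1 base short (199 bp). Sequencing depth is unknown.

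Genes and canonical starts were taken from GENCODE version 44. A shared peak needed 1 base of overlap, and ratios used 200 bp as pseudocount. Counts are given beside the same quantity over all protein-coding genes. No test was made, since each condition is 1 merged list. Strings were counted in hg38 with pysam 0.24.0, numpy 2.4.6 and pandas 2.3.3 were used for intervals, and the interval counts were tested on simulated lists. Every gene of the list was described, with its start-site peaks, its gained peaks and its 3 widest lost peaks. Other pathway genes were named where covered bases, with 200 bp added, differed at least 2-fold or a start-site peak was in 1 list alone. The only others named were those that a count singled out. The latency group was the exception and was named in full. The genes, pathway list and strings were chosen with earlier results of these data known. The alternatives changed the flanks, overlap rule, peak width, joining of peaks, pseudocount, start definition and string window. The target genes of the pathway list entered its totals and are not reported singly here.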

Additional observations from a re-analysis of the deposited data

How the results depend on the processing

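Each condition is 1 merged list without depth, so no difference has an error, and narrow peaks rest on 1 or a few bins. No paired analysis was possible because the replicates were merged before peak calling. The number of genes with a start-site peak in both lists stayed between 8 and 9, and the median log2 ratio of the members was negative under all alternatives run. Lost and gained counts were the least stable. With the gene body only, 3 peaks were gained, 35 sites were shared and the median ratio was -0.20, and with 5 kb flanks it was -0.22 (coding genes -0.31 and -0.34). With 50 kb flanks, 19 were lost and 12 gained, and with 50% coverage required for a shared peak 22 and 9. The shares over all peaks were not computed for the 50% rule. Among peaks of at least 600 bp, 3 were gained, and of at least 1000 bp, 2 were lost and 1 gained. Joining peaks within 600 bp could change nothing, since no neighbouring peaks of a list lay that close. The sign turned for ACVRL1 with 5 kb flanks (1.58) and for ENG with 5 kb flanks (-0.11) and the gene body only (-0.00039). With whole peaks searched, the AP-1 string was in 51.6% of control and 51.5% of cadmium peaks at the members, forkhead strings in 70.3% and 61.8%, and the metal response element core in 78.1% and 64.7%. Over all peaks these were 48.9% and 47.6%, 59.8% and 47.3%, and 62.0% and 57.3%. The forkhead value in cadmium and the core value in control lay outside the members' intervals, which treat neighbouring peaks as independent and are no test. The cause of these changes was not tested beyond the larger or smaller stretch that each setting takes in.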
